A study of Arabidopsis thaliana with 4 samples.

Results

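FRUITFULL (FUL) binding sites whose maximum lay inside a protein-coding exon were described from a list of FUL sites in Arabidopsis siliques. A site was included, whatever its score, when its listed maximum fell in a coding exon of any annotated transcript of a protein-coding gene. This held for 1004 of the 2831 sites, in 927 of the 27444 annotated protein-coding nuclear genes, and the other 1827 sites are called the rest of the list. The chromatin immunoprecipitation followed by sequencing (ChIP-seq) comprised 2 FUL-GFP ChIP samples, made with an antibody against GFP, and 2 input DNA samples without antibody. All 4 samples were pistils and siliques of floral stages 12 to 16 from plants of the genotype *pFUL:FUL-GFP ful-1*, in a mixed Col/Ler background, grown with 16 h light and 8 h dark at 22 °C. The tagged protein is driven by the *FUL* promoter in a mutant for the endogenous gene, so the ChIP and the input carry the same alleles, and a sample without the transgene was not analysed here. The list gives 1 score per site, a pooled enrichment of ChIP over input without a unit, and no value per replicate. The spread between replicates and the depth of each library are therefore unknown, no difference given here was tested, and the 95% intervals cover only the counting of sites. The tissue could not be checked against marker genes, because the list holds no expression values.

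FUL is a MADS domain transcription factor known for its role in the patterning of the pistil and the silique. MADS domain proteins bind DNA as dimers, and as larger complexes, at a motif called the CArG box, in which CC and GG enclose a stretch of A and T bases. Such sites are usually described in promoters and introns. Coding exons are richer in G and C than the sequence around them, and their bases also have to encode a protein.

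An exact CArG box (CC, 6 bases that are A or T, and GG) was found within 100 bp of the maximum in 14 of the 1004 coding-exon sites (1.39%), where 4.77% of all listed sites had one. These sites held 15 boxes, of which 9 lay wholly in coding exons and 7 had their centre within 50 bp of the maximum. The 7 boxes with a centre within 50 bp of a coding-exon maximum are shown, whether or not the box itself was coding. They are given on the coding strand of the gene (TAIR10.1 sequence), with the box in capitals and 10 bases to each side.
*AT5G56980*, chr5:23057700-23057729: aaaacacaacCCAAAAATGGagttactaac
*AT1G01300*, chr1:118421-118450: ggcggactatCCATAATTGGgaatatccag
*AT1G76360*, chr1:28643807-28643836: aaaaatgggcCCATTAATGGattctcacac
*AT5G02420*, chr5:523850-523879: aagattattgCCTTAATTGGtaatgatcgt
*AT3G02030*, chr3:347706-347735: agagctgcagCCAAATTTGGagccaaaata
*AT2G22030*, chr2:9372781-9372810: cgatactaagCCTTTTTTGGgcaggagact
*AT2G44940*, chr2:18537717-18537746: gcggctttagCCATTAAAGGtacaacggct

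Of these, the box of *AT5G56980*, annotated as a cotton fiber protein, spanned the border between the untranslated and the coding part of its only exon. Its site (chr5:23057529-23057877) had a score of 59.09, and the maximum lay 21 bp downstream of the first base of the start codon. The box of *AT5G02420*, which encodes a protein annotated as a cyclin-dependent kinase inhibitor, lay in an untranslated part of an exon, 47 bp from a maximum with a score of 5.57. The boxes of *AT1G01300* (an aspartyl protease) and *AT1G76360* (a protein kinase) lay wholly in coding sequence at sites that both scored 8.14. The other sites shown scored 4.18 (*AT3G02030*), 3.85 (*AT2G22030*, in which a second box lay 58 bp from the maximum) and 3.40 (*AT2G44940*, an AP2 type protein). The boxes that are not shown had centres between 52 and 95 bp from the maximum, and those at *AT2G34060* (a peroxidase, score 10.26) and *AT5G41800* (score 3.40) lay in introns. Apart from *AT5G56980* and *AT2G34060*, no site with a CArG box exceeded a score of 8.14.

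The longest coding-exon sites, 23 of at least 500 bp (2.29%, where 2.12% of all listed sites were as long), had no such box within 100 bp of the maximum, and 1 of them, at *AT2G35850*, had a box elsewhere in the site. To show what lay under maxima inside gene bodies, 60 bp to each side of the maximum are given for 3 of the longest sites and for the highest site of 2 genes with 4 coding-exon sites each. The whole stretch was coding in each case. The capitals mark 10 bases with the fewest mismatches to a CArG box, and other bases in a stretch can match equally well.
*AT4G29780*, chr4:14580660-14580780: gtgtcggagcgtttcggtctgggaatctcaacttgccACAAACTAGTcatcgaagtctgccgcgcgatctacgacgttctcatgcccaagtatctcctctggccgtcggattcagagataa
*CAF1a*, chr3:15952291-15952411: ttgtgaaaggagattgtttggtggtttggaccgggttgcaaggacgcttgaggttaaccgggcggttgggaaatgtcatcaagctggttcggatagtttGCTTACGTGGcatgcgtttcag
*ERF4*, chr3:5121768-5121888: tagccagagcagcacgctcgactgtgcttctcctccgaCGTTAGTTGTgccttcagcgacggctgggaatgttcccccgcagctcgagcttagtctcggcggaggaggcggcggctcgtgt
*MYC2*, chr1:11799920-11800040: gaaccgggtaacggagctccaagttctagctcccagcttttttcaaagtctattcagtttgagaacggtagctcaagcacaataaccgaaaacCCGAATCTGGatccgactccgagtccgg
*ACS6*, chr4:6865541-6865661: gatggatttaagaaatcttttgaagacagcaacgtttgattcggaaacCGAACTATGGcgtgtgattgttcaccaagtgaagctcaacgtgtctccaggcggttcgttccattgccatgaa

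The closest match had 3 mismatches to the CArG box at *AT4G29780*, *CAF1a* and *ERF4*, and 2 mismatches at *MYC2* and *ACS6*.

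The coding-exon sites had lower scores and were shorter than the rest of the list. Their median score was 3.97 (95% interval 3.91 to 4.24, quartiles 3.40 and 5.57), against 4.43 in the rest of the list (quartiles 3.40 and 7.05). A score of at least 5.6 was reached by 226 coding-exon sites (22.5%, 95% interval 20.03 to 25.2%) and by 620 of the rest (33.9%), where 29.9% of all 2831 sites reached it. This score marks the lower end of the loci that the study lists as enriched, so most coding-exon sites lay below it. Scores are stepped, and 191 of the coding-exon sites shared the value 3.40. Coding bases make up 28.3% of the genome and held 35.5% of all sites (95% interval 33.7 to 37.2%), but their share depended on the score. It was 42.0% among sites with a score from 3.5 to below 4.5 and 39.4% from 5.6 to below 8. It was 23.7% from 8 to below 12, 16.8% from 12 to below 20 and 13.6% (15 of 110 sites) at 20 and over.

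The median length of the coding-exon sites was 85 bp, against 150 bp in the rest of the list. Sites shorter than 30 bp accounted for 261 coding-exon sites (26.0%) and 288 of the rest (15.8%). Accordingly, the coding share was 47.5% of the sites shorter than 30 bp and declined with length to 12.3% of those from 300 to below 500 bp. The longest sites went the other way. Among sites of 800 bp or more, 12 of 16 were coding-exon sites (75.0%, 95% interval 50.5 to 89.8%), and the longest of them extended over 2020 bp, whereas no site of the rest exceeded 960 bp. A length of at least 500 bp was found in 23 coding-exon sites (2.29%) and in 37 of the rest (2.03%). Among the sites that reached a score of 5.6, these were 10.2% of the coding-exon sites and 5.81% of the rest.

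**Figure D1:**
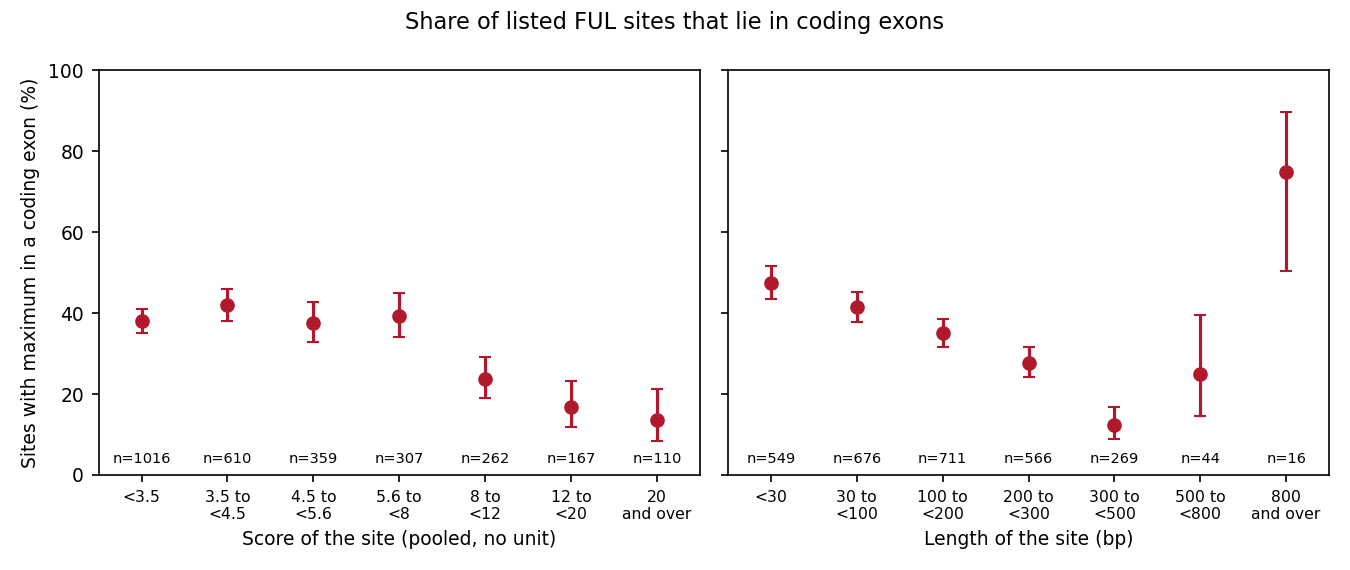
Share of all listed sites (%, y axis) whose maximum lay in a coding exon, by score of the site (left, no unit) and by length of the site in bp (right); points are shares, bars are 95% Wilson intervals and n is the number of sites per bin. The share falls to 13.6% at scores of 20 and over and to 12.3% at 300 to below 500 bp, and is 75.0% at 800 bp and over.

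The base composition around the maxima differed as well. The median GC content of the 201 bp around the maximum was 45.8% in the coding-exon sites and 38.8% in the rest of the list. All windows of this size centred on a coding base (coding windows) had a median of 41.8%. Thus the windows at coding-exon sites were richer in G and C than coding windows in general. Such windows can also hold intron or untranslated sequence, so these values are not those of coding sequence alone. A second copy of the 201 bp around the maximum was found elsewhere in the genome, organelles included, for 15 coding-exon sites (1.49%) and 48 of the rest (2.63%). None of the 1004 coding-exon sites had a copy in an organelle genome, which allows a share of up to 0.381%.

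The 10 highest coding-exon sites belonged to genes of different kinds. The highest, in *AT3G41762* (chr3:14195715-14196085, score 259.34), has a second copy of the sequence around its maximum in the genome and lies within 10000 bp of ribosomal RNA genes, next to 6 further listed sites upstream with scores of up to 347.22. It and *AT5G56980* were followed by *AT5G58412*, which encodes a putative membrane lipoprotein (33.42). *SDP1-LIKE*, related to a triacylglycerol lipase, had a score of 32.37 at chr3:21152565-21152813. The nuclease gene *AT4G29780* (31.31), the deadenylase gene *CAF1a* (29.21) and *ERF4*, which encodes a repressor of ethylene-responsive transcription (23.62), combined a high score with a great length. *AAE3*, which encodes an acyl-activating enzyme, was the opposite case, with a score of 25.16 in a site of only 13 bp (chr3:18160814-18160827). *BAS1*, which encodes a cytochrome P450 that inactivates brassinosteroids, had a site of 404 bp in the third of its 4 exons (chr2:11382488-11382892, score 24.24). *AT2G47050*, annotated as an inhibitor of invertases and pectin methylesterases, had a score of 23.21.

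The maxima were unevenly distributed along the coding sequence. When each coding sequence was divided into 5 equal parts from the start codon to the stop codon, the sites in them numbered 283 (28.2%, 95% interval 25.5 to 31.0%), 146 (14.5%), 185 (18.4%), 165 (16.4%) and 225 (22.4%, 95% interval 19.9 to 25.1%), while an even distribution would give 20% in each. The 226 sites that reached a score of 5.6 had 25.2% in the first and 26.1% in the last of these parts, and 11.1% in the second. The median distance to the start codon was 546 bp, and 268 sites (26.7%) lay within 200 bp of it. The share of all coding bases that lie as close was not counted. Over their whole extent 721 sites (71.8%) were coding. Of all maxima, 63 maxima lay within 10 bp of a border of a coding exon, 68 were coding in only part of the transcripts of their gene and 4 were in overlapping genes.

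**Figure D2:**
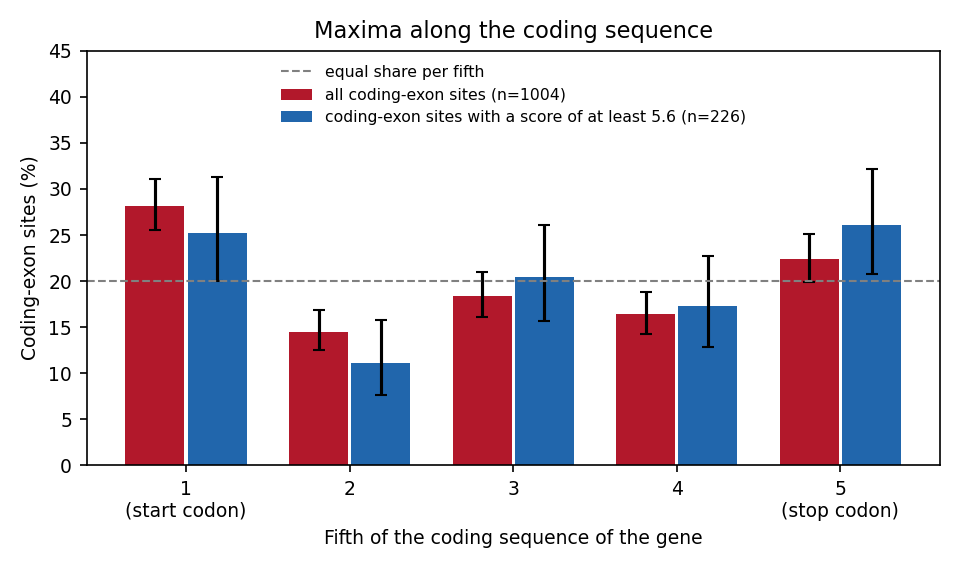
Share of coding-exon sites (%, y axis) in 5 equal parts of the coding sequence from the start codon (left) to the stop codon (right), for all 1004 sites and for the 226 with a score of at least 5.6; bars are shares, error bars are 95% Wilson intervals and the dashed line is an equal share of 20%. The first part holds 28.2% and the second 14.5% of all coding-exon sites.

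The exon structure of the genes differed from that of coding sequence in general. Genes with a single coding exon held 357 of the sites (35.6%, 95% interval 32.7 to 38.6%) but 17.1% of all coding bases. In genes with several coding exons, 36.0% of the sites were in the first and 32.9% in the last coding exon, which hold 22.4% and 23.1% of the coding bases of such genes. Internal coding exons had 31.1% of the sites and 54.5% of the bases. The exons with a site had a median length of 558 bp, against 134 bp for all coding exons. A coding base drawn from the genome lies in an exon with a median length of 380 bp. A maximum in a coding exon can also lie upstream of a neighbouring gene, and this was so for 480 sites (47.8%) within 3000 bp and for 96 (9.56%) within 1000 bp of the start codon of another gene. The same holds for 47.8 and 8.04% of all coding bases. One of them was the site in the TCP transcription factor gene *AT5G51910* (score 9.12), only 103 bp upstream of *AT5G51915*.

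A site outside coding exons within 3000 bp upstream of the start codon was listed for 113 of the 927 genes with a coding-exon site (12.2%) and for 1706 of the 26517 other genes (6.43%). That site had the higher score in 64 of these genes, the lower score in 43 and the same score in 6. *FUL*, listed as *AGL8*, belonged to this group. Its coding-exon site (chr5:24502648-24502763, score 6.47) had its maximum 14 bp from the stop codon in the last exon, whereas 2 sites upstream had scores of 16.36, with its maximum at a distance of 250 bp from the start codon, and 14.20. The transgene also carries *FUL* sequence, so that reads of the transgene and of the endogenous locus cannot be told apart here. *CKX5*, which encodes a cytokinin-degrading enzyme, had a coding-exon site of 26 bp with a score of 3.95 in its first exon. The study lists a higher score within this gene and counts it as a direct target, so 3.95 is only its coding-exon value. *SHP1*, *SHP2*, *SEP3*, *CKX7*, *SAUR10* and *SAUR16* had no coding-exon site. This concerns coding exons only, as the study has *SHP2*, *SEP3*, *CKX7*, *SAUR10* and *SAUR16* among its bound loci. Besides *FUL*, *SOC1* (listed as *AGL20*) was the other MADS-box gene with a coding-exon site (score 3.40).

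The long sites covered large parts of their genes. The 23 sites of at least 500 bp were looked at separately after their lengths had been seen. They covered a median of 93.8% of the coding sequence of their gene, 13 covered at least 90% and 9 the whole of it. The start codon was within the site in 12 cases and the stop codon in 15. Genes with a single coding exon made up 17 of the 23. The scores started at 7.0 (*JAZ1*) and had a median of 10.82, and the GC content around the maximum was between 38.8 and 60.7% (median 48.8%). A CArG box near the maximum was found in none of them (0 of 23, 95% Wilson upper limit 14.3%).

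The longest, of 2020 bp at *AT4G29780* (chr4:14579497-14581517), covered a coding sequence without introns entirely and ended 36 bp beyond its stop codon. A separate site with a score of 42.15, higher than the 31.31 of the gene body, lay 655 bp downstream of the stop codon. At *DIC2*, which encodes a dicarboxylate carrier of mitochondria, the site of 1934 bp (chr4:12686225-12688159, score 10.82) likewise extended beyond both ends of the coding sequence. *HSPRO2*, an orthologue of a sugar beet resistance gene, had a site of 1257 bp (score 15.90) over 93.8% of its coding sequence. *SRC2*, named after a cold-regulated soybean gene, had 1146 bp (chr1:2927762-2928908, score 19.95) over its whole coding sequence. The site of *ERF4* (chr3:5121274-5122241, 967 bp) covered the whole coding sequence, and its downstream neighbour site scored 31.29 and its upstream site 9.55. The same held for *CAF1a* (chr3:15952195-15953143, 948 bp), which had no further site in its flanks.

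In some of the genes with introns, the site also covered intron sequence. The site of *GRP7*, which encodes a glycine-rich RNA-binding protein under circadian control, was 972 bp long (score 14.71) and covered both exons and the intron between them. *ERD10*, which encodes a dehydrin, had 943 bp with a score of 15.25 and was covered for 98.2% of its coding sequence. In contrast, the sites of *SZF1*, a salt-inducible zinc finger gene (1024 bp, score 14.71), and of *CT-BMY*, which encodes a chloroplast β-amylase (886 bp, score 18.95), covered only 52.7 and 47.2% of the coding sequence. The site of *CT-BMY* lay towards the stop codon, and that of *SZF1* lay within its second coding exon. *AT1G18740* (904 bp, score 9.48) and *AT4G32020* (802 bp, score 15.90) completed the sites of 800 bp or more. The shorter ones among the 23 included *CBF1*, an activator of cold-responsive genes (644 bp, score 7.88), *JAZ1*, a repressor of jasmonate responses (551 bp), *GAE1*, which is involved in the synthesis of pectin precursors (627 bp, score 10.68), and the polyubiquitin gene *UBQ11* (661 bp, score 8.2). The sequence around the maximum at *UBQ11* has a second copy in the genome.

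**Figure D3:**
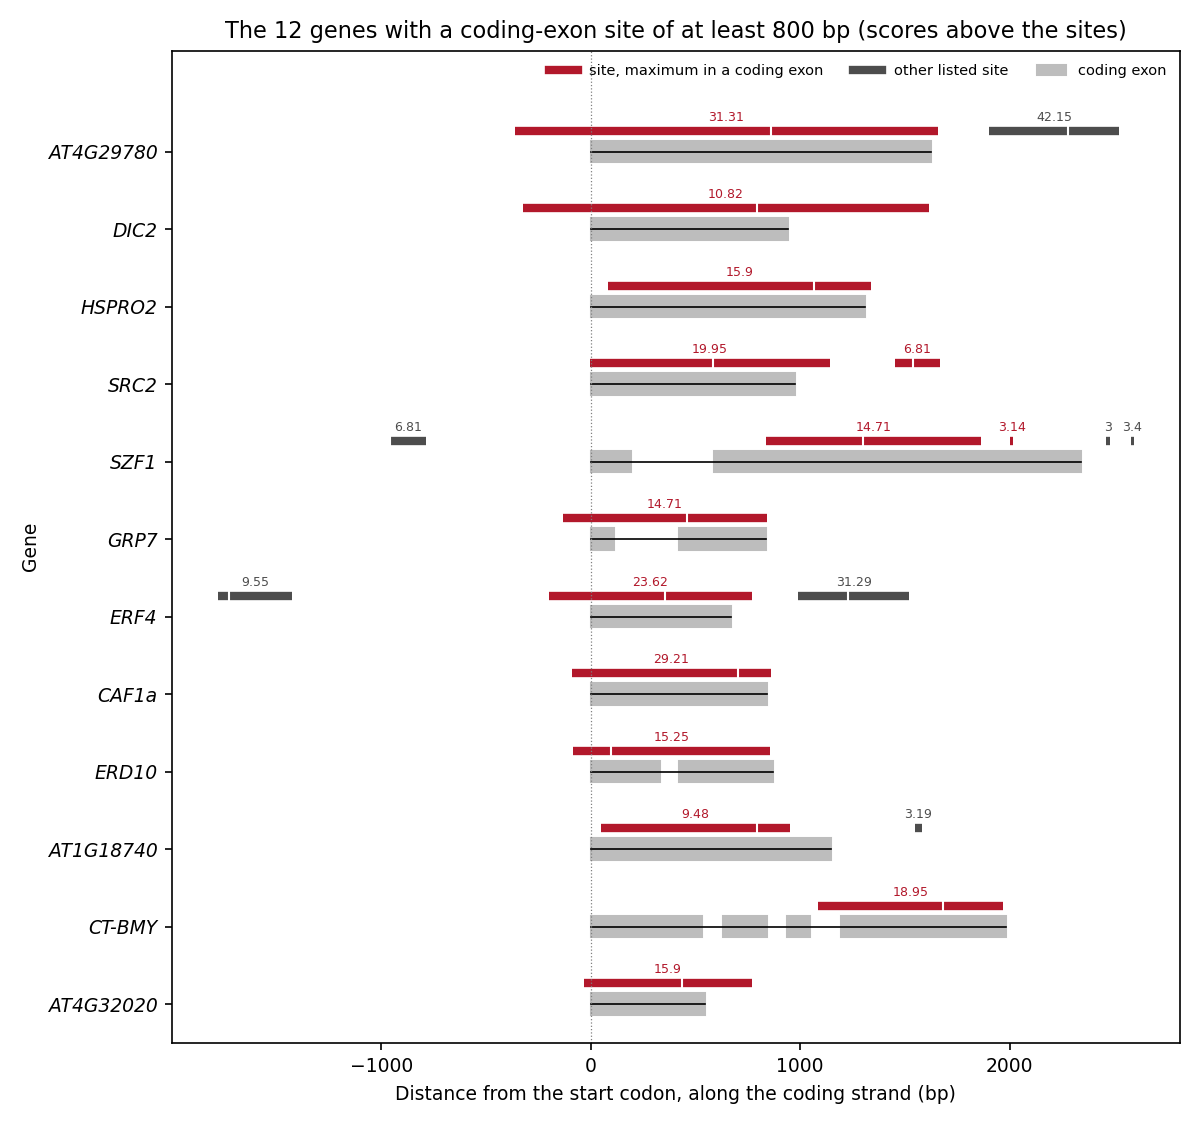
The 12 genes with a coding-exon site of at least 800 bp, drawn in bp from the start codon along the coding strand; grey boxes are coding exons of the transcript with the longest coding sequence, red bars are sites with the maximum in a coding exon of the gene or of a neighbour, dark bars are other listed sites, white ticks are maxima of sites of 60 bp and more, and numbers are scores. Sites at genes such as *AT4G29780* and *CAF1a* reach beyond both ends of the coding sequence, while those of *SZF1* and *CT-BMY* start at 837 and 1083 bp.

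A site upstream of the gene was listed for 7 of these 23 genes and had the higher score only at *CBF1* (33.42 at 1180 bp upstream). A site outside coding exons within 1000 bp downstream of the stop codon was listed for 8 of the 23 genes, and scored higher than the gene body in 5 of them. Over all 927 genes with a coding-exon site, 59 (6.36%) had such a downstream site.

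Several coding-exon sites were listed in 67 genes (7.23%), of which 60 had 2 sites, 4 had 3 and 3 had 4. Sites close to each other were counted separately here. Merging of sites within 500 bp left 910 coding-exon sites, and it would join those of *ACS6*, of *RAP2.4* and of *EXL4* into a single region per gene. *ACS6*, which encodes a synthase of the ethylene precursor, has 4 exons and had no site in its upstream region. Its sites scored 3.40 in the first exon, 6.81 in the third, and 6.21 and 7.58 in the last. *MYC2*, the central transcription factor of jasmonate responses, has no intron and had scores of 5.57, 7.05, 3.29 and 3.52 from the start codon to the stop codon. *LOX3*, a lipoxygenase gene of jasmonate synthesis, had 3.95, 4.43, 4.74 and 3.47, an upstream site of 3.40, and sites of 4.43 and 6.81 whose maxima lay outside its coding exons. Its first 3 coding-exon sites were between 263 and 299 bp long, the last was only 5 bp long. *RAP2.4*, an AP2 type transcription factor gene, had 5.28, 5.93 and 6.81 along its only coding exon. *EXL4*, an *EXORDIUM*-like gene, had 4.11, 3.29 and 4.43. The highest score among these 5 genes was 7.58, at *ACS6*.

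**Figure D4:**
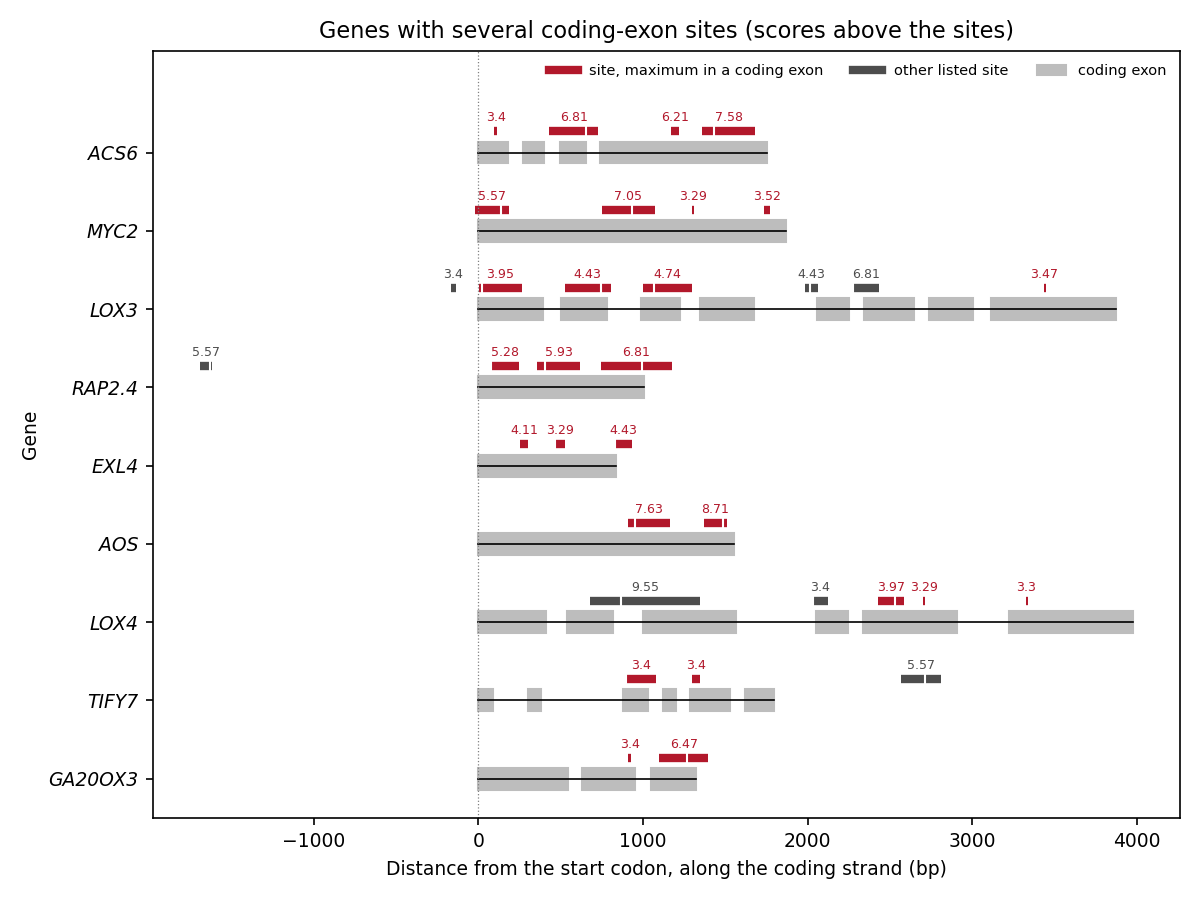
Coding-exon sites (red) and other listed sites (dark) in 9 genes with several coding-exon sites, drawn in bp from the start codon along the coding strand over the coding exons (grey) of the transcript with the longest coding sequence; numbers are scores and white ticks are maxima of sites of 60 bp and more. The sites of *ACS6* and *MYC2* score between 3.29 and 7.58 and are spread from the start codon to the last exon.

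Further genes with several sites, chosen after their values had been seen, included genes of jasmonate and gibberellin pathways. *AOS*, which encodes an enzyme of jasmonate synthesis after the lipoxygenase step, had scores of 7.63 and 8.71. *LOX4*, a lipoxygenase gene like *LOX3*, had 3.97, 3.29 and 3.30, and sites of 9.55 and 3.40 whose maxima lay outside its coding exons. *TIFY7*, related to *JAZ1*, had 3.40 in each of 2 exons. *GA20OX3*, which encodes an enzyme of gibberellin synthesis, had 3.40 and 6.47.

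Among the lists of gene descriptions, the hormone-related genes took the largest number of coding-exon sites. They held 103 sites in 83 genes, which was 10.3% of the coding-exon sites (95% interval 8.53 to 12.3%), while these genes have 4.06% of all coding bases. Counted as genes, they were 8.95% of the genes with a coding-exon site and 6.85% of the 876 genes that had a site within 1000 bp upstream and none in coding exons, against 3.88% of all genes. The median score of these sites (3.97) was that of all coding-exon sites. A score of at least 5.6 was reached by 23 of them (22.3%), against 22.5% of all coding-exon sites. Besides *BAS1* and *ERF4*, the highest were *CEJ1*, an AP2 type gene (18.99), *CYP94B3*, which encodes an enzyme that oxidizes the active jasmonate (15.73, 453 bp), *CYP707A2*, which encodes an enzyme that breaks down abscisic acid (12.59), and *VSP1*, a vegetative storage protein gene (12.13). The maximum at *CYP707A2* was coding in only 1 of 4 transcripts.

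The hormones differed in number. Genes described with jasmonate had 31 sites in 19 genes, 3.09% of the coding-exon sites (95% interval 2.18 to 4.35%) with 0.433% of the coding bases. They were 2.05% of the genes with a coding-exon site and 0.799% of the 876 genes with an upstream site. Their sites had a median score of 4.43 and a median length of 146 bp, and they made up 7 of the 67 genes with several sites. Ethylene had 22 sites (2.19% of the sites, 0.665% of the bases), abscisic acid 21 (2.09 and 0.769%), cytokinin 8 (0.797 and 0.436%), gibberellin 7 (0.697 and 0.259%), salicylic acid 6 (0.598 and 0.375%) and brassinosteroid 3 (0.299 and 0.307%). Auxin had 18 sites (1.79 and 1.39%), none of which reached a score of 5.6.

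Words for stress responses were added after the genes of the long sites had been seen and are given as a description only. Genes described with water deprivation had 32 sites (3.19% of the sites, 0.758% of the coding bases). A score of 5.6 was reached by 13 of them (40.6%), against 22.5% of all coding-exon sites and 29.9% of all listed sites. Salt had 25 sites (2.49 and 1.23%), wounding 22 (2.19 and 0.474%), cold 19 (1.89 and 0.756%), heat 16 (1.59 and 1.52%) and chitin 9 (0.896 and 0.311%). Genes with any of the hormone or stress words held 17.7% of the coding-exon sites with 7.98% of the coding bases. They were 16% of the genes with a coding-exon site and 7.51% of all genes. Of the 67 genes with several sites they were 24 (35.8%), and of the 23 genes with a long site 11 (47.8%). The last count is not independent of the words, because the stress words were added after those genes had been seen.

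Genes matched by words for transcription factors, zinc fingers included, had 69 coding-exon sites (6.87% of the sites, 4.87% of the coding bases), with a median score of 3.79. The words do not catch every transcription factor gene, such as *ERF4* and *CEJ1*, and also catch zinc finger proteins of other kinds. The highest in this list were *SZF1*, *AT4G25610* (a zinc finger gene, 13.65), *AT5G51910*, *WRKY33*, which encodes a regulator of defence responses (8.39), *AT5G47430*, a CCHC type zinc finger gene (8.14), and *RDUF1*, a RING finger gene (7.34). The maximum at *AT4G25610* was coding in only 1 of 3 transcripts. Cell wall genes had 24 sites (2.39 and 1.19%) with a median score of 4.43. Besides *AT2G47050*, they included *AT4G02320* (17.45) and *PMEPCRF* (8.14), both pectin methylesterase-related, and the arabinogalactan protein genes *AT4G12950* (14.22), *AGP1* (14.16) and *FLA2* (11.03). Genes of light responses and flowering had 19 sites (1.89 and 1.25%). Among these were *GRP7*, the flowering time gene *FPA* (9.55), *MYC2*, and 3 genes that all scored 6.81, the phosphatase gene *FYPP3*, *UNE10* and *DDF1*.

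Finally, the motif content around the maxima was compared with the rest of the list and with windows centred on coding bases in general. The exact CArG box was found within 100 bp in 1.39% of the coding-exon sites (95% interval 0.832 to 2.33%) and in 121 sites of the rest (6.62%, 95% interval 5.57 to 7.86%). All coding windows of 201 bp in the genome had it in 0.997%. Among sites that scored 5.6 or more the box was found in 5 of 226 coding-exon sites (2.21%) and in 74 of 620 of the rest (11.9%). With 1 mismatch allowed, the shares were 15.9% and 41.1%, against 18.0% of all coding windows. In the rest of the list the boxes were concentrated at the maximum, with 3.07 boxes per 100 sites in the 50 bp around it, and 0.164 to 0.493 at 400 bp and more to either side. The coding-exon sites had 0.598 boxes per 100 sites (6 boxes) at the maximum. They had 0.797 (8 boxes) in the bin at +200 bp and 0 boxes in the bin at -200 bp, so these counts are small.

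**Figure D5:**
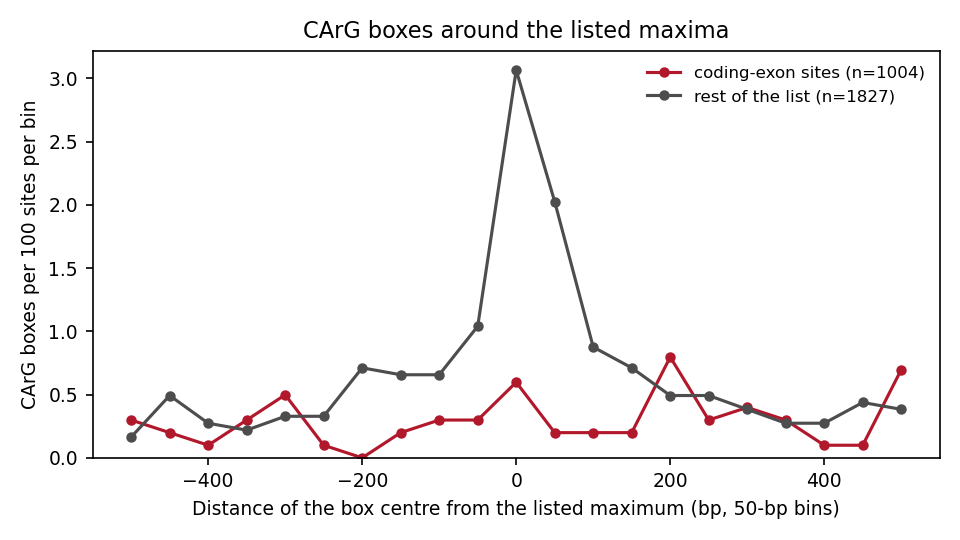
CArG boxes per 100 sites (y axis) in 50-bp bins of the distance between the centre of the box and the listed maximum (x axis, bp), for the 1004 coding-exon sites and the 1827 sites of the rest of the list. The rest of the list reaches 3.07 at the maximum, where the coding-exon sites have 0.598.

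Other short motifs, chosen after values had been seen and searched on both strands, gave a mixed picture. The G-box (CACGTG), a motif bound by bHLH and bZIP proteins, was within 100 bp of the maximum in 61 coding-exon sites (6.08%) and in 17.0% of the rest, against 2.14% of all coding windows. The GCC box (GCCGCC), known as a binding motif of ethylene response factors, was near 152 coding-exon sites (15.1%) and 3.83% of the rest, against 4.20% of all coding windows. Since GC content differed, the share in coding windows was also weighted to the GC content of the coding-exon sites, which gave 3.71% for the G-box, 9.38% for the GCC box and 0.849% for the CArG box, or 15.0% with 1 mismatch allowed. The 152 sites with a GCC box had a median score of 3.97 and a median length of 85 bp, both the same as for all coding-exon sites, a median GC content of 51.2%, and were in genes with a single coding exon in 46.1% of cases. The W box (TTGACC), the motif of WRKY proteins, was found in 10.7% of the coding-exon sites, 11.1% of the rest and 8.52% of all coding windows (9.32% weighted). The motif of TCP proteins (GTGGGNCC) was found in 0.697, 3.61 and 0.379%, with 0.707% of coding windows after weighting by GC content. In the same 3 sets, a stretch of GAGAGAGA was found in 4.58, 7.77 and 3.17%, GAAGAAGAA in 4.38, 4.60 and 4.71%, and AAACCCTA in 3.19, 3.34 and 1.95%, and the weighted values were 3.87, 4.51 and 2.13%. These motifs can overlap with each other, and a match is only a match of letters.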

How the data were processed

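ChIP-seq libraries of 2 FUL-GFP ChIP samples and 2 input DNA samples were mapped by the authors to TAIR9 with SOAPv2, allowing at most 2 mismatches and keeping unique matches outside the organelle genomes, and peaks were called with CSAR. Versions and settings of CSAR are not given in the sources used here. The deposited list has 1 pooled score per site, together with start, end, maximum and length, and the score combines the replicates and the input in a way that cannot be undone. Depth per library is unknown.

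Sites were annotated with the RefSeq annotation and sequence of TAIR10.1 (Python 3.11.15, pandas 2.3.3, numpy 2.4.6), whose chromosome sequences are those of TAIR9. All 2831 sites lay within the chromosomes. A score limit of 5.6 marks the lower end of the loci regarded as enriched in the study. It was reached by 846 of the listed sites, which is more than the study reports as significant, so it does not reproduce that set. Motifs were searched on both strands within 100 bp of the maximum and in all 201 bp windows centred on a coding base. For the weighting by GC content, windows were grouped in steps of 10 G or C bases. Copies of the 201 bp around each maximum were searched with BLAST 2.17.0+ in the nuclear and organelle genomes (95% identity over 80% of the window). Shares have 95% Wilson intervals and medians have exact binomial intervals over sites, which cover counting error only. The counting and motif functions were tested on simulated data. No test between sites was made, since sites are not replicates.

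Named sites were the 10 with the highest score, those with a CArG box, up to 6 per gene list with a score of at least 5.6, the 5 genes with the most sites, and *FUL*, *SHP1*, *SHP2*, *SEP3*, *CKX5*, *CKX7*, *SAUR10* and *SAUR16*. Members and lists were chosen with earlier results of these data known. The sites of at least 500 bp, the stress words, the short motifs other than the CArG box and 4 further genes with several sites were chosen after their values had been seen. Gene lists were matched by words in the RefSeq descriptions. Stricter scores, other windows, other transcripts, the midpoint of the site, merging of sites within 500 bp and the omission of ribosomal DNA, of second copies and of short sites were tried as alternatives.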

Additional observations from a re-analysis of the deposited data

How the results depend on the processing

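Of 33 alternatives, 22 moved a value by less than its interval and 11 by more. The share of sites in coding exons (35.5%) was 26.7% among sites with a score of at least 5.6 and 32.6% among sites of at least 30 bp. The median score of the coding-exon sites (3.97) was 4.43, and the share with a score of at least 5.6 (22.5%) was 29.1%, among sites of at least 30 bp. The share with a CArG box (1.39%) was 0.598% within 50 bp of the maximum and 15.9% with 1 mismatch allowed. The median GC content (45.8%) was 47.5% within 50 bp and 46.9% over the whole listed site. The median position in the coding sequence (48.7%) was 52.7% for sites with a score of at least 5.6. The coding share of the longest sites (38.3% at 500 bp and more) was 23.0% at 400 bp and more and 75.0% at 800 bp and more. The cause of these shifts was not tested. The limits of 30, 400 and 800 bp were chosen after seeing the data. No paired analysis was possible because the list holds no value per sample, and for the same reason no replicate was left out. Sites of a few bp and scores on few steps limit how finely low sites can be ranked. The listed maximum, on which the choice of sites and the motif windows rest, was the first or last base of the site in many cases. This held for 326 coding-exon sites (32.5%) and 652 of the rest (35.7%), and for 9.29% of the coding-exon sites with a score of at least 5.6.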

Other observations

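Cytochrome P450 genes had 20 sites (1.99% of the coding-exon sites, 0.973% of the coding bases). A score of 5.6 was reached by 7 of them (35%), against 22.5% of all coding-exon sites and 29.9% of all listed sites. Transporter genes had 35 sites (3.49 and 2.68%) and a median score of 3.65. Protein kinase genes had 36 sites (3.59%) with 7.31% of the coding bases, pentatricopeptide genes 9 sites (0.896 and 1.75%) and F-box genes 17 sites (1.69 and 2.12%). Ribosomal protein genes had 7 sites (0.697 and 0.611%), photosynthesis genes 4 (0.398 and 0.129%), disease resistance genes 4 (0.398 and 0.433%) and the list of cytoskeleton, histone and chaperone genes 7 (0.697 and 1.20%). Genes related to transposons had 4 sites (0.398 and 0.225%), and genes with an uncharacterized product 64 sites (6.37 and 4.78%). None of these differences was tested.

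The coding-exon sites numbered 29.9, 31.1, 27.7, 35.0 and 27.2 per Mb of coding sequence on chromosomes 1 to 5. Chromosome 4 had 181 of them, which was 40.2% of its listed sites.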
